A study of Caenorhabditis elegans with 6 samples.

Results

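The C-type lectin genes of Caenorhabditis elegans, named clec-, were examined in worms treated with chlorpyrifos (CPF) and in control worms. All probes whose sequence name belongs to a gene with a symbol that begins with clec- were taken. They were 243 of 22490 probes and stood for 229 of the 18865 genes on the array. No measured value entered this choice. By the annotation, 210 of the 229 genes were protein coding and 19 were pseudogenes.

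C-type lectin domains are compact protein folds, many of which bind sugars in the presence of calcium. The family is among the largest in the nematode, most of its proteins are thought to be secreted, and many are made in the intestine. Several clec- genes are known to change when worms meet bacteria that infect them, and a number of these depend on the p38 MAP kinase PMK-1. Other members have no described function.

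CPF is an organophosphorus insecticide that blocks acetylcholinesterase. Wild type N2 worms were raised from eggs on nematode growth medium with Escherichia coli as food, for 72 hours at 16 °C, and were harvested as larvae of stage L3 to L4. CPF treated worms had CPF in the agar, dissolved in acetone, and control worms had the acetone alone. The labels give 0.5 mg/ml of CPF whereas the study's own methods state this amount per litre, and neither unit could be chosen from the files. Each of 6 arrays compared 1 CPF sample with 1 control sample. CPF was labelled with Cy5 on 3 arrays (CPF Cy5 replicates 1 to 3) and with Cy3 on the other 3 (CPF Cy3 replicates 1 to 3). Each sample was RNA of worms pooled over several dishes. The study's own methods describe the replicates of a treatment as biological and independent of each other. The sources do not tell whether every array had its own control extract. The p-values therefore describe the variation among these 6 arrays, which may be technical in part on the side of the control.

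Between 35% and 56.9% of all probes were above background in the CPF samples and between 41.5% and 61.6% in the control samples. The arrays were scanned on 2 days, the first with CPF Cy5 replicates 1 and 2 and CPF Cy3 replicate 1. Over all genes, 225 of 18865 (1.19%) were significantly regulated, 61 of them (0.323%) higher and 164 (0.869%) lower in CPF treated worms. A gene was called regulated where limma gave an adjusted p below 0.05 over all genes.

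Most C-type lectin genes gave little signal in worms of this stage. A spot was taken as above background where its mean exceeded the mean of its surroundings by more than 2 SD, and a gene was judged by the 1 probe that stood for it, the brightest on average. By this measure 138 of the 229 genes (60.3%) were above background on no array in either condition, against 33.4% of all genes on the array. On all 6 arrays of both conditions 29 genes (12.7%) were detected, against 31.0% of all genes. On all arrays of 1 condition there were 7 further genes, and 55 were detected on some arrays. None of the 19 pseudogenes was detected on all arrays of a condition, and 3 were detected on at least 1 array. Pseudogene log2 fold changes lay between -0.17 and 0.23, and none was called by limma.

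The number of detected members was higher in the Cy5 sample of every array. It was 76, 62 and 57 for CPF in Cy5, against 58, 49 and 46 for the control in Cy3 on the same arrays (CPF Cy5 replicates 1 to 3). With the dyes exchanged it was 47, 41 and 44 for CPF in Cy3, against 80, 48 and 60 for the control in Cy5 (CPF Cy3 replicates 1 to 3). Over all 6 arrays of a condition, 32 genes were detected in CPF treated worms and 33 in control worms.

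**Figure D1:**
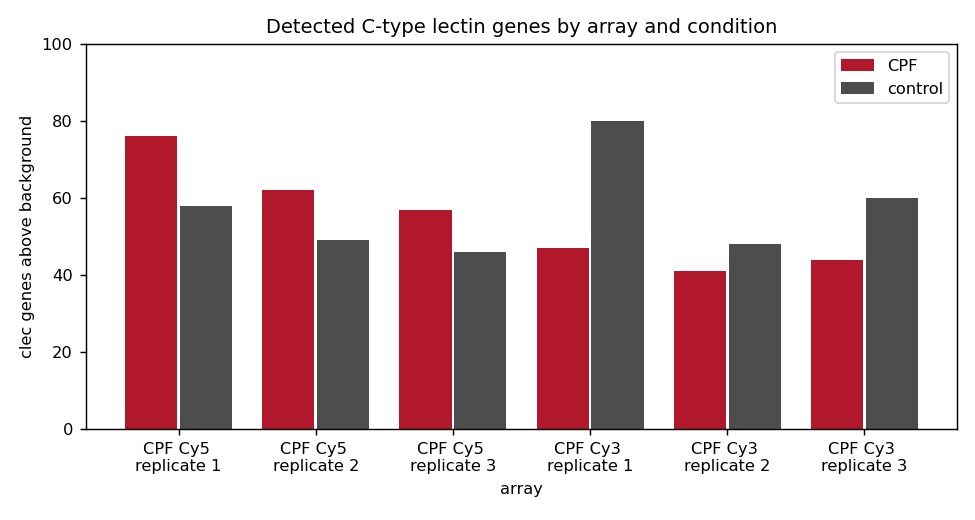
Number of clec- genes above background (y axis) on each of the 6 arrays (x axis), with CPF as the left bar and control as the right bar of each pair. On the CPF Cy5 arrays the CPF bar is the higher (76, 62 and 57 in CPF against 58, 49 and 46 in control), and on the CPF Cy3 arrays the CPF bar is the lower (47, 41 and 44 in CPF against 80, 48 and 60 in control).

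The 36 members detected on all arrays of at least 1 condition were clec-1, clec-5, clec-7, clec-10, clec-41, clec-45, clec-47, clec-48, clec-49, clec-50, clec-52, clec-56, clec-60, clec-63, clec-66, clec-72, clec-76, clec-83, clec-84, clec-85, clec-86, clec-87, clec-149, clec-150, clec-160, clec-180, clec-186, clec-187, clec-197, clec-206, clec-209, clec-225, clec-230, clec-238, clec-247 and clec-265. The gene clec-57 is not among them, since its probe was above background on 5 arrays in each condition, while a second probe of it was above background on all 6 in both. In this set are clec-41, which takes part in the defence against Bacillus thuringiensis, clec-49, which is known from worms on Serratia marcescens, clec-52 and clec-60, which are known to respond to Staphylococcus aureus, and clec-85, a gene under PMK-1. On the normalized log2 intensity scale clec-63 had levels of 14.14, 14.47 and 14.6 in CPF treated worms (lowest, median and highest of 6), against 13.8, 14.05 and 14.7 in control worms. Its log2 fold change of 0.27 ± 0.12 (SE) did not pass.

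As a family the C-type lectin genes had a fold change centred on 0 and a few members far from it. The median log2 fold change of the 229 genes was 0.005, with quartiles of -0.08 and 0.08. Over all 18865 genes the median was likewise 0.005, with the same quartiles. Both sets include genes that were above background nowhere. The 36 detected members had a median of -0.06 with quartiles of -0.26 and 0.24, against -0.01, -0.11 and 0.09 for the 7072 genes detected in the same way, which is a description only, as the levels tested also decided on detection. The fold changes of the members had an SD of 0.3 between genes, against 0.22 over all genes. There were 120 members above 0 and 109 below it, and 218 lay between -0.5 and 0.5. On the single arrays the median log2 ratio of the members was between -0.05 and 0.04. The lowest log2 fold change of the family was -1.36 for clec-60, and the highest was 2.04 for clec-206. Both genes counted as detected only through the condition with the higher level, clec-60 through control and clec-206 through CPF.

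**Figure D2:**
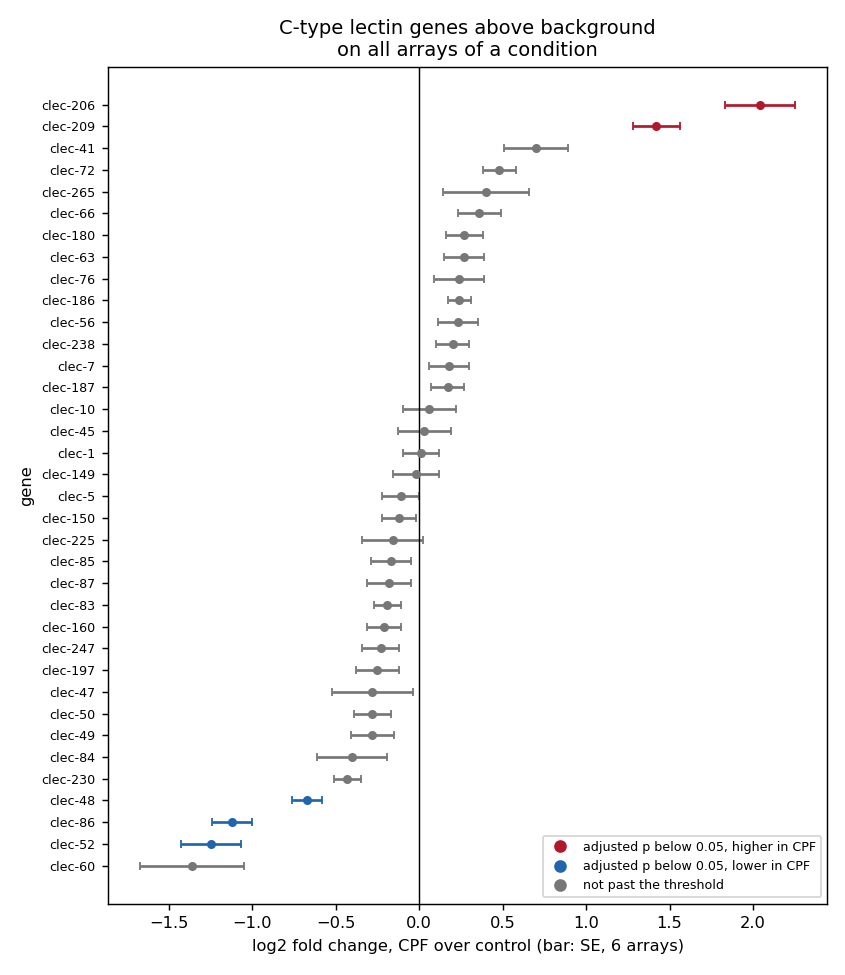
Fitted log2 fold change of CPF over control (x axis) with its SE for the 36 clec- genes above background on all 6 arrays of a condition (y axis, in order of fold change). The 2 members in red lie at 1.42 and 2.04, the 3 members in blue between -1.25 and -0.67, and those in grey did not pass an adjusted p of 0.05.

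In CPF treated worms 7 of the 229 genes (3.06%) were significantly regulated, against 1.19% of all genes. Of these, clec-206, clec-209 and clec-174 were higher (1.31% of the members, against 0.323% of all genes) and clec-52, clec-86, clec-123 and clec-48 were lower (1.75%, against 0.869%). At an unadjusted p below 0.05 there were 15 members higher, or 6.55% against 3.89% of all genes, and 15 lower, or 6.55% against 6.45%. Of the 7, clec-174 and clec-123 were not among the 36 detected members. Of these 36, 5 passed, beside 173 of the 7072 detected genes (2.45%). These shares are a description only, as the levels tested also decided on detection. Of the 5, clec-86 alone was above background on all 6 arrays of both conditions. The others were so only in the condition where their level was higher. The number of calls depended on the arrays that entered the fit, for the members as for all 18865 genes. Without CPF Cy5 replicate 1 limma called 0 members, with 9 higher and 13 lower at an unadjusted p below 0.05, and 37 of all genes. Without CPF Cy5 replicate 2 it called 0, with 10 higher and 12 lower, and 7 of all genes. Without CPF Cy3 replicate 3 there were 2 calls, clec-206 and clec-86, and 24 over all genes. Without CPF Cy5 replicate 3 there were 3, clec-206, clec-86 and clec-209, and 84 over all genes. Without CPF Cy3 replicate 1 there were 11, with clec-174 lost, and 313 over all genes, and without CPF Cy3 replicate 2 there were 8, with clec-123 lost, and 207 over all genes. The rank product over all 6 arrays called 11 members, namely all 7 and clec-60, clec-41, clec-210 and clec-265. Of 18865 genes it called 529. The gene clec-265, called higher, had ratios from -1.32 on CPF Cy3 replicate 2 to 1.79 on CPF Cy5 replicate 2. Its log2 fold change in limma was 0.4 (adjusted p = 0.703). Without background correction limma called 0 members, with 15 higher and 13 lower at an unadjusted p below 0.05, and 19 of all genes.

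The gene that was most strongly higher was clec-206 (F59A7.1). Its levels were 8.11, 9.46 and 10.27 in CPF treated worms (lowest, median and highest of 6), against 6.82, 7.22 and 7.95 in control worms. The lowest CPF sample lay above the highest control sample. Levels of CPF wholly above those of the control were found for 1 of the 229 members, and for 0.133% of all genes. The log2 ratios of CPF over control were 2.66, 2.25 and 1.90 on CPF Cy5 replicates 1 to 3 and 1.90, 0.90 and 2.65 on CPF Cy3 replicates 1 to 3. All 6 arrays had the higher level in CPF, and CPF Cy3 replicate 2 gave the smallest ratio. The log2 fold change was 2.04 ± 0.21 (SE, limma adjusted p = 0.012), or 4.12-fold. The control was above background on 5 of the 6 arrays.

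For clec-209 (Y19D10A.9) the levels were 7.67, 10.10 and 10.92 in CPF treated worms, against 6.84, 8.69 and 9.58 in control worms. These ranges overlapped, the level of the gene differing between arrays in both conditions, and CPF was the higher on each array. The ratios were 1.68, 1.85 and 0.82 on the CPF Cy5 arrays and 1.14, 1.34 and 1.70 on the CPF Cy3 arrays. Its fitted log2 fold change was 1.42 ± 0.14 (SE, limma adjusted p = 0.012), or 2.68-fold.

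The third gene that was higher, clec-174 (Y46C8AL.2), was close to the background in control worms. It was above background on 5 arrays in CPF and on 1 in control. Levels were 6.15, 7.46 and 7.95 in CPF treated worms and 6.20, 6.34 and 6.80 in control worms. The ratios were 1.47, 0.87 and 1.15 on the CPF Cy5 arrays and 0.87, -0.05 and 1.27 on the CPF Cy3 arrays, so that CPF Cy3 replicate 2 showed no higher level in CPF. The fit gave a log2 fold change of 0.93 ± 0.17 (SE, limma adjusted p = 0.0498). This call stood at the threshold. The offset used in the background correction draws dim spots towards each other, which may understate the fold change. Over 21 alternatives of the limma fit it lay between 0.54 and 1.64, and the gene passed in 7 of them.

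**Figure D3:**
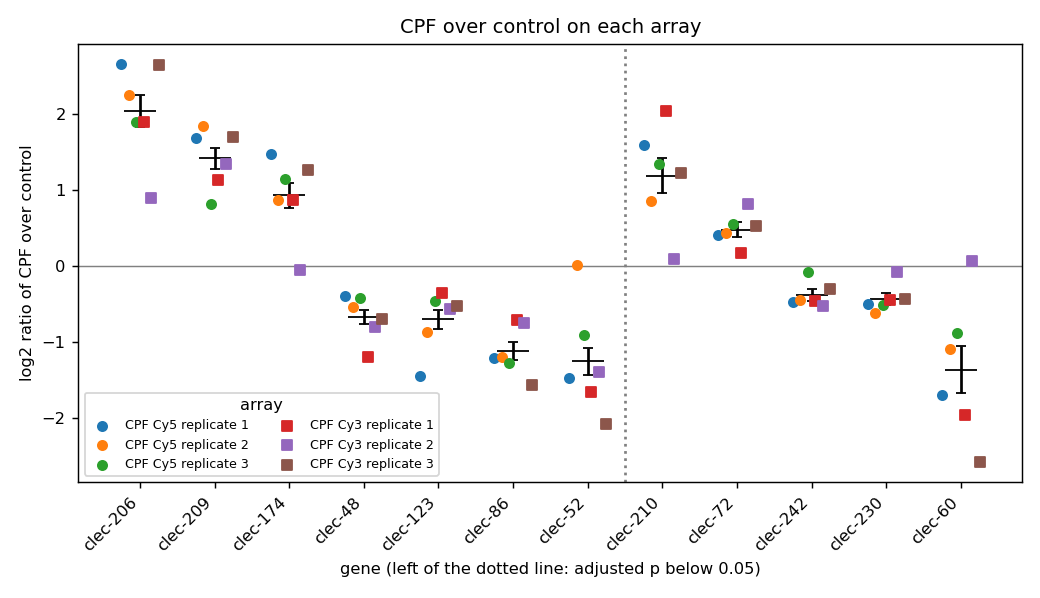
Log2 ratio of CPF over control (y axis) on each of the 6 arrays for the 7 clec- genes with an adjusted p below 0.05 and, to the right of the dotted line, the 5 genes with the next smallest p (x axis). Black bars are the fitted log2 fold change and its SE, circles are arrays with CPF in Cy5 and squares those with CPF in Cy3. The 6 points of clec-206, clec-209, clec-86, clec-48 and clec-123 lie on 1 side of 0, whereas clec-52 has 1 point at 0.02 and clec-174 has 1 at -0.05.

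Among the genes that were lower, clec-52 (B0218.8) had the lowest fold change. It is known to be induced by Staphylococcus aureus. Its levels were 7.98, 8.54 and 8.86 in CPF treated worms, against 8.33, 9.73 and 10.94 in control worms. The ratios were -1.47, 0.02 and -0.90 on the CPF Cy5 arrays and -1.66, -1.39 and -2.08 on the CPF Cy3 arrays. Thus 5 of the 6 arrays had the lower level in CPF, and the ratio on CPF Cy5 replicate 2 was close to 0. Over the 6 arrays the log2 fold change was -1.25 ± 0.18 (SE, limma adjusted p = 0.0289).

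The levels of clec-86 (C54D1.2) were 7.45, 7.88 and 8.81 in CPF treated worms and 8.42, 9.26 and 9.56 in control worms. It was above background in every sample. The ratios were -1.21, -1.20 and -1.27 on the CPF Cy5 arrays and -0.71, -0.75 and -1.56 on the CPF Cy3 arrays. All were below 0, while the ranges of the levels overlapped. This gave a log2 fold change of -1.12 ± 0.12 (SE, limma adjusted p = 0.0121), which was 2.17-fold lower.

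For clec-48 (C14A6.1) levels were 6.68, 10.17 and 10.85 in CPF treated worms, against 7.37, 10.78 and 12.05 in control worms. The ratios were -0.39, -0.53 and -0.42 on the CPF Cy5 arrays and -1.20, -0.80 and -0.69 on the CPF Cy3 arrays. All 6 were below 0, and the CPF Cy3 arrays had the larger differences. The log2 fold change was -0.67 ± 0.09 (SE, limma adjusted p = 0.0196). The lowest levels of both conditions came from CPF Cy3 replicate 3.

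The lower gene least often detected was clec-123 (Y25C1A.1), above background on 2 arrays in CPF and on 5 in control. Levels were 6.26, 6.72 and 7.25 in CPF treated worms and 6.78, 7.48 and 7.72 in control worms. The ratios were -1.45, -0.86 and -0.46 on the CPF Cy5 arrays and -0.35, -0.56 and -0.52 on the CPF Cy3 arrays, all below 0. Its fitted log2 fold change was -0.70 ± 0.12 (SE, limma adjusted p = 0.0486).

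Markers of sperm and yolk were lower in the same CPF samples. Of 37 sperm markers 17 passed, all lower, with a median log2 fold change of -1.38. The median log2 ratio of these markers ran from -2.53 (CPF Cy5 replicate 1) up to -0.57 (CPF Cy3 replicate 2) over the arrays. Summed over the 37 sperm markers, the intensity was 45542, 87670 and 105403 in CPF treated worms (lowest, median and highest of 6) and 129626, 199532 and 243505 in control worms. Of the 37 markers 27 were lower on all arrays, and 5 were above background on none. For the 6 genes of yolk proteins, which are made in the intestine of the adult, the sums were 728, 2911 and 7046 in CPF treated worms, against 6571, 10282 and 12144 in control worms, all 6 being lower on every array, and 4 of them passed. The part of these cells and of the stage of the worms in the lower C-type lectin genes was not tested. For RNA of whole worms, fewer cells of a type and less RNA per cell cannot be told apart. The 4 intestinal markers measured had a median log2 fold change of -0.11. The medians were -0.43 for 5 oocyte markers, 0.08 for 3 of muscle and -0.03 for 3 of epidermis, and none of these passed.

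Scan day was examined as a batch. The block for the day was fitted to the ratio of Cy5 over Cy3. It lets the dye effect differ between days, not the effect of CPF. With the day as a block 4 of the 7 genes passed, namely clec-209 (1.31, adjusted p = 0.00602), clec-206 (2.01, 0.0246), clec-86 (-1.08, 0.0302) and clec-48 (-0.71, 0.0328). The others had the same direction with an adjusted p of 0.0551 for clec-52, 0.0688 for clec-123 and 0.0855 for clec-174 (limma). On the first day alone the log2 fold changes were 1.45 for clec-209, 2.18 for clec-206, 1.02 for clec-174, -0.96 for clec-86, -0.83 for clec-48, -1.19 for clec-52 and -0.76 for clec-123. On the second day alone they were 1.17 for clec-209, 1.84 for clec-206, 0.88 for clec-174, -1.21 for clec-86, -0.58 for clec-48, -1.31 for clec-52 and -0.50 for clec-123. Thus all 7 kept their direction within both days. The genes had been called from these same arrays, so this is no independent test. A test of the difference between days gave an adjusted p below 0.05 for 0 of the 229 members and 0 of all 18865 genes in limma, so that it does not tell the members from other genes. It gave an unadjusted p below 0.05 for 10 of them (4.37%, against 8.53% of all genes).

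The members closest to the threshold included some with large fold changes. For clec-60, which belongs to the response to Staphylococcus aureus, levels were 6.89, 7.10 and 9.81 in CPF treated worms, against 8.07, 8.90 and 9.74 in control worms. Its ratios were -1.69, -1.09 and -0.88 on the CPF Cy5 arrays and -1.96, 0.07 and -2.58 on the CPF Cy3 arrays. The log2 fold change of -1.36 ± 0.31 (SE, limma adjusted p = 0.105) was the lowest of the family, yet did not pass, with 5 of 6 arrays lower and CPF Cy3 replicate 2 near 0. Without that array, both clec-60 and clec-210 passed. It held the ratio nearest to 0 of both genes, so leaving it out favours a call, and this is a description only. With any other single array left out, clec-60 did not pass.

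The ratios of clec-210 (Y73C8C.2) were 1.60, 0.86 and 1.35 on the CPF Cy5 arrays and 2.04, 0.09 and 1.23 on the CPF Cy3 arrays. Levels were 6.28, 7.74 and 8.35 in CPF treated worms, against 6.19, 6.30 and 6.89 in control worms, where it was above background on 1 array. The fit gave a log2 fold change of 1.19 ± 0.23 (SE, limma adjusted p = 0.0587), with CPF the higher on 6 of 6 arrays.

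Smaller differences of even direction were found for clec-230, clec-72 and clec-41. The log2 fold change of clec-230 was -0.43 ± 0.08 (SE, limma adjusted p = 0.054), below 0 on all 6 arrays. That of clec-72 was 0.48 ± 0.10 (SE, limma adjusted p = 0.0662) and that of clec-41 was 0.70 ± 0.19 (SE, limma adjusted p = 0.171), both above 0 on all 6 arrays. The gene clec-41 had a second probe, which gave 0.43. The levels of clec-242 did not overlap between conditions, with 6.35, 6.58 and 6.71 in CPF treated worms and 6.77, 7.01 and 7.11 in control worms (0.217% of all genes had CPF wholly below control). It was above background on only 1 array in CPF and 2 in control, and its log2 fold change was -0.38 ± 0.08 (SE, limma adjusted p = 0.1).

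The other members with small p were clec-73 (-0.35), clec-166 (-0.30), clec-186 (0.24), clec-151 (-0.32), clec-119 (-0.26) and clec-239 (0.35), with adjusted p between 0.186 and 0.307 in limma. For clec-73 no CPF sample was above background, so its value is no measured fold. Ratios above 0 on all 6 arrays were found for 7 members (3.06%, against 2.86% of all genes), and ratios below 0 on all 6 arrays for 10 members (4.37%, against 4.28%).

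A list of 15 members was drawn up from known responses to bacteria. In this list none was higher (0.323% of all genes) and 2 of 15, clec-52 and clec-86, were lower (0.869% of all genes), with a median log2 fold change of -0.03, against 0.005 over all genes. The 6 of them that were detected on all arrays of a condition were clec-41, clec-49, clec-52, clec-60, clec-85 and clec-86. For clec-85, known to depend on PMK-1, the log2 fold change was -0.17 ± 0.12 (SE). For clec-67, another target of PMK-1, the fitted value of 0.23 is no measured fold, with 1 CPF sample and no control sample above background. For clec-49 it was -0.28 ± 0.13 (SE). The genes clec-4, clec-39, clec-65 and clec-71 were above background on no array, and their response could not be measured at this signal. Values were 0.29 for clec-17, 0.23 for clec-42, -0.17 for clec-61 and 0.03 for clec-70, none of which passed.

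Other families of secreted defence proteins and the regulators of immunity were measured beside the lectins. Of 16 lysozymes 1 was lower, lys-10 (-0.67, limma adjusted p = 0.0264), and of 7 infection response genes 1 was higher, irg-4 (1.16, limma adjusted p = 0.012). Over all genes 0.869% were lower and 0.323% higher. Log2 fold changes ran from -0.67 to 0.58 in the lysozymes and from -0.31 to 1.16 in the infection response genes. None of the 12 galectins (median 0.08), 22 saposin-like genes (-0.01) and 8 caenacins (0.02) passed. The 13 regulators, among them pmk-1, sek-1, nsy-1, tir-1, atf-7, elt-2 and daf-16, had log2 fold changes between -0.12 and 0.10, with none called.

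C-type lectin genes often stand side by side on the chromosomes. In the annotation 264 clec- genes were placed in order, of which 35 were not measured here. Counting genes with no more than 3 others between them as neighbours, 177 stood in 51 groups and 87 stood alone. No group held more than 1 regulated gene. Only clec-52, clec-123 and clec-174 of the regulated genes stood in a group, too few to tell whether neighbours change together. The genes clec-206, clec-209, clec-48 and clec-86 stood alone. Next to clec-52 was clec-51 with a log2 fold change of -0.02, and next to clec-123 were clec-121 and clec-122, each at 0.08 and undetected. The group of clec-60 held clec-58 (0.07) and clec-59 (-0.06), both undetected, and clec-61 (-0.17), above background on 1 array in CPF and on 3 in control.

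The gene clec-174 lay in a group of 14 that runs through clec-67 to clec-79, of which 12 were measured. Its neighbours on the 2 sides were clec-71 with 0.11, which was above background on no array, and clec-72 with 0.48, followed by clec-73 with -0.35. The others lay between -0.22 (clec-79) and 0.24 (clec-76). Of these, clec-68, clec-74, clec-75 and clec-78 were above background on no array. The probe of clec-67 was so on 1 array in CPF only, and that of clec-79 on 1 in control only. No CPF sample of clec-73 was above background. For these genes the values are no measured folds. Neighbours can be similar in sequence and a long probe may bind more than 1 of them. Sequences of the probes were not used here, so this was not tested.

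**Figure D4:**
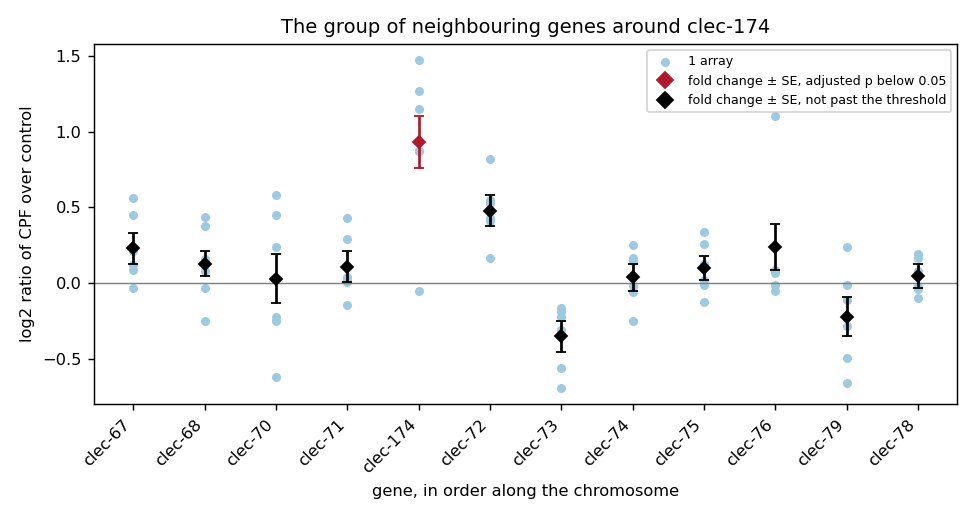
Log2 ratio of CPF over control (y axis) for the 12 measured genes of the group around clec-174, in their order along the chromosome (x axis). Pale points are single arrays and diamonds the fitted log2 fold change with its SE, red where the adjusted p was below 0.05. Only clec-174 passed (0.93), clec-72 lay at 0.48 and clec-73 at -0.35. The genes clec-68, clec-71, clec-74, clec-75 and clec-78 were above background on no array, and clec-73 in no CPF sample.

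Some members differed far more between arrays than between conditions. Averaged over both conditions, the log2 level of clec-218 was 12.55 and 12.39 on CPF Cy5 replicates 1 and 3 and between 5.87 and 6.10 on the other 4 arrays. That of clec-233 was 14.31 on CPF Cy5 replicate 1 and between 7.32 and 8.36 elsewhere, that of clec-113 was 11.95 on the same array and between 6.09 and 6.26 elsewhere, and that of clec-212 was 11.59 on CPF Cy3 replicate 2 and between 5.90 and 6.15 elsewhere. In each case both conditions were bright on the array in question, and 1 control spot of clec-233 was saturated, so that its highest level is a lower limit. An SD of at least 1 between arrays was found for 9 members (3.93%, against 8.67% of all genes). Both shares include genes that were above background nowhere. Among detected genes the median SD was 0.48 for the members, against 0.44 over all. The other 5 members with an SD of at least 1 were clec-50, clec-51, clec-48, clec-57 and clec-209. Of the 9, clec-48 and clec-209 passed the test of CPF against control, in which each ratio is taken within an array.

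**Figure D5:**
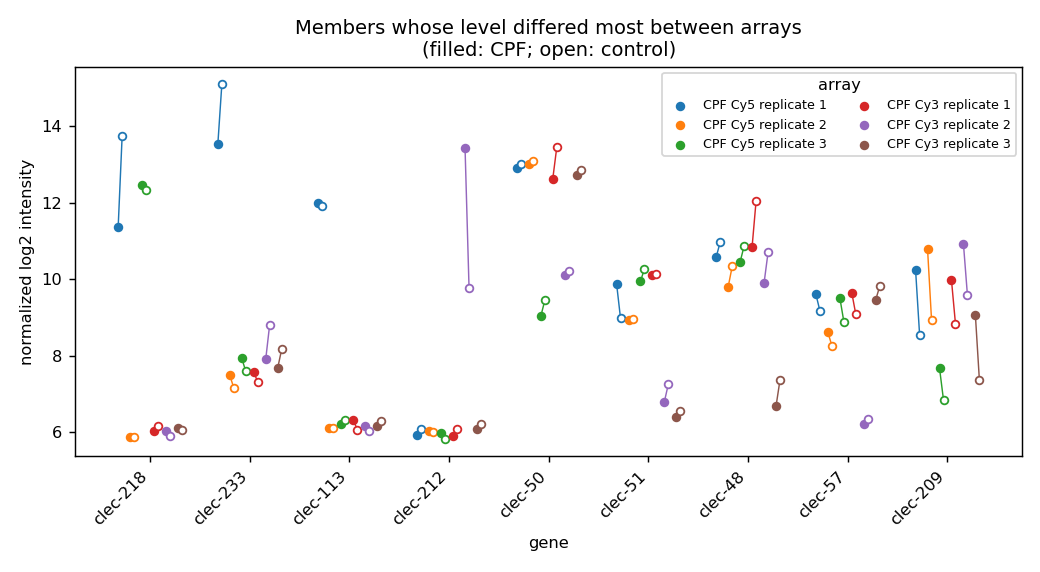
Normalized log2 intensity (y axis) in both conditions of each array for the 9 clec- genes (x axis) with an SD of at least 1 between arrays. Filled points are CPF and open points are control, joined for each array, with 1 colour for each array. For clec-218, clec-233, clec-113 and clec-212 the 1 or 2 bright arrays lie above 9 in both conditions while the others stay below 9.

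Of the 12 members with several probes none was called by any probe. For clec-57 the probes gave 0.25 and -0.19, and for clec-50 they gave -0.28, -0.01 and 0.21. The first of each is that of the brightest probe, which stood for the gene.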

How the data were processed

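RNA of CPF treated and control worms was hybridised to 6 two-colour arrays with long oligonucleotide probes. Per the file headers, the authors deposited each spot's mean intensity and the mean and median intensity of its surroundings, linear and without normalization. Also deposited were a percent of saturated pixels and a numeric code per spot that no source explains. Columns normalized by the scanner were left out. The authors' deposited series table held log2 ratios. Set against the scanner values it equalled a loess of the mean intensity without background correction, as CPF over control, to within 0.0148. Its column medians were -0.00107, -0.000791, -0.000933, -0.00213, 0.0021 and 0.00608.

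Of 23232 spots 742 were controls. Probes were named through a gene table of the assembly WBcel235, used for names and gene order only (21382 by locus tag, 31 by gene number, and 1077 kept the name in the file). All 243 clec- probes matched by locus tag. The brightest probe stood for a gene. Background was corrected with normexp (offset 50), followed by global loess within arrays and Aquantile between arrays. limma 3.58.1 in R 4.3.3 (lmFit, eBayes) was fitted to all probes with a treatment and a dye term. Tests were two-sided and adjusted after Benjamini and Hochberg over 18865 genes. Errors are SEs of fitted log2 fold changes (n = 6 arrays). The rank product was computed in an implementation of its own, over 100 permuted sets, and called genes below a false positive share (PFP) of 0.05. Tables were made with pandas 2.3.3 and plots with matplotlib 3.10.9. The limma fit was tested on simulated ratios, the other steps were not.

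The text names the members called, the 12 with the next smallest p, those known from pathogen responses, the neighbours of called members and those whose probes disagree. Members and lists were chosen with earlier results of these data known. Genes singled out for their spread between arrays, and those listed as detected, were chosen after their values were seen. Protein and promoter sequences were not used here. The number of arrays limits the precision.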

Additional observations from a re-analysis of the deposited data

Results flagged for a closer look

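Among 69 sets of 6 arrays examined (60 sets of ratios and 9 of levels) 12 held 1 array that stood far from the other 5. Of these 7 were sets of ratios. Chance alone marks about 1 in 20 sets that are chosen without regard to their values. That rate does not hold for the 9 sets of levels, since those genes were taken for their spread between arrays. Nor need it hold for the ratios, since these were in part of genes taken for a small p or for that spread. For the log2 ratio of CPF over control the marked sets were clec-51 with 0.91 on CPF Cy5 replicate 1, clec-218 with -2.39 on CPF Cy5 replicate 1, clec-66 with -0.41 on CPF Cy3 replicate 1, and on CPF Cy3 replicate 2 clec-76 with 1.1, clec-166 with 0.11, clec-212 with 3.65 and clec-230 with -0.08. For the level averaged over both conditions they were clec-233 with 14.31 (1 control spot saturated) and clec-113 with 11.95 on CPF Cy5 replicate 1, clec-212 with 11.59 and clec-57 with 6.28 on CPF Cy3 replicate 2, and clec-48 with 7.03 on CPF Cy3 replicate 3. The ratios of clec-218 and clec-212 come from arrays on which those genes were far brighter than on most others. None of these genes other than clec-48 passed the test of CPF against control.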

How the results depend on the processing

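The 7 regulated members kept their direction in every alternative that gave a value (156 values), and in 62 of these the adjusted p was above 0.05. The alternatives reuse the arrays from which the genes were called, so the kept direction is no independent test. Its highest value was 0.103 for clec-209, 0.121 for clec-206, 0.0975 for clec-86, 0.185 for clec-48, 0.175 for clec-52, 0.3 for clec-123 and 0.236 for clec-174. Calls among members, and among all genes, numbered 0 and 19 without background correction (unadjusted p below 0.05 for 15 members higher and 13 lower), 0 and 19 in the authors' values (15 and 13), 1 and 3 with plain subtraction, where the median of the members was 0.049, 4 and 130 with a block for scan day, 9 and 861 on scan day 1 alone (3 arrays), 4 and 139 on scan day 2 alone, 4 and 139 with spots of code 3 only, 10 and 409 with array weights and 11 and 529 by rank product. On detected probes only, the median of the members was -0.061. Leaving out 1 array at a time gave 0 to 11 calls among members and 7 to 313 among all genes. With the replicate block 5 members passed, without clec-123 and clec-174 (adjusted p = 0.0557 each), and 190 genes. Arrays were compared by the deviation of their ratios from the mean of their dye group, over 6408 probes above background in every sample. These deviations, not the ratios themselves, correlated at 0.16, 0.144 and 0.02 between same-numbered arrays. Those of CPF Cy5 replicate 3 correlated best with CPF Cy3 replicate 2 (0.0465), so the numbers were not taken as pairs. Detected members numbered 43 at 1 SD above background, 32 at 3 SD and 36 to 47 with 1 array left out. A fit of the variance over 1 probe a gene, chosen after seeing the data, called the 7 regulated members and clec-230. Its count over all genes is not given here, so this does not set the members apart from other genes. Dim signal limits the 138 members that were above background nowhere. The cause of these differences was not tested.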
